A study of Mus musculus with 42 samples.

Results

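The 9 genes described here encode the pyruvate dehydrogenase complex, 2 of the kinases that switch it off, and 3 enzymes of the first part of the tricarboxylic acid (TCA) cycle. They were taken by symbol from the deposited gene tables after mapping the Ensembl identifiers, and are 9 of the 55487 genes listed. Each symbol had 1 identifier, and all 9 passed the filter on low counts in the mRNA and in the ribosome footprint libraries. Pdha1 and Pdhb encode the α and β subunits of E1, the decarboxylase. Dlat encodes E2, the acetyltransferase core, and Pdhx the E3-binding protein of that core. Pdk1 and Pdk3 encode pyruvate dehydrogenase kinases. Cs encodes citrate synthase, Idh3a the catalytic subunit of the NAD-dependent isocitrate dehydrogenase, and Ogdh the E1 of the 2-oxoglutarate dehydrogenase complex.

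Pyruvate dehydrogenase turns pyruvate from glycolysis into acetyl-CoA inside the mitochondrion, and citrate synthase joins that acetyl-CoA to oxaloacetate. The kinases phosphorylate E1α and lower the flux into the cycle, and phosphatases reverse this. Pdk1 is a textbook target of the hypoxia-inducible factor, which diverts pyruvate to lactate. The E2 proteins carry a lipoyl group that has to be attached to them, and the complex that degrades branched-chain 2-oxoacids is built on the same plan and shares its E3 subunit, Dld, with pyruvate dehydrogenase.

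The study compared leukaemia cells from mice on 2 diets, with and without chemotherapy. The cells were an acute myeloid leukaemia (AML) labelled MLL-AF9, after the fusion oncogene that drives it, of WT genotype, with a GFP reporter and a luciferase under the β-actin promoter. Recipients were male and 8 to 10 weeks old, and received the leukaemia by retro-orbital injection with no preconditioning. The BCAA-free diet lacked branched-chain amino acids, and the amino acid (AA) diet was the standard one. Chemotherapy, called 5+3, was cytarabine at 100 mg/kg for 5 days with doxorubicin at 3 mg/kg on the first 3 of them, begun at a high leukaemic burden, and controls received PBS vehicle. The groups were AA vehicle (5 mice), AA 5+3 (4), BCAA-free vehicle (5) and BCAA-free 5+3 (7). GFP-positive viable cells were sorted from bone marrow, and each of the 21 mice gave 1 Smart-seq2 mRNA library and 1 footprint library from the same lysate. As a model this is a single leukaemia, from 1 terminally ill mouse, expanded in culture with SCF, IL-3 and IL-6, in recipients whose marrow had not been ablated. Names of the AA vehicle mice end in an unexplained B, and a batch that it might stand for and the group cannot be told apart.

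Totals were 30996200 to 70437713 counts in mRNA and 2697092 to 8863472 in footprints. Levels are given as CPM, counts relative to the library total after scaling by the trimmed mean of M values (TMM), with SD over mice. They cannot be set against each other between genes, because they are not divided by length. All 12 markers of the leukaemia and of myeloid identity were counted in every group and kind. Their summed footprint level was 4245 to 6538 CPM in AA vehicle, 6121 to 7966 in AA 5+3, 4595 to 6629.9 in BCAA-free vehicle and 4330.0 to 5387 in BCAA-free 5+3, so that the 5+3 groups did not overlap. Such a sum is weighted to abundant genes, and of all single genes 17.5% did not overlap there. Between the 5+3 groups, Itgam, Mpo and Myb were lower on the BCAA-free diet (−0.92 ± 0.18, −0.60 ± 0.14 and −0.30 ± 0.08) and Kit was higher (0.74 ± 0.20). The rest of the 12 did not pass, where 28.3% of all genes passed, and the median change of the 12 was −0.06. Of the mRNA libraries, 4 stood apart on the first principal component, BCAA-free vehicle mice 1, 2 and 5 and BCAA-free 5+3 mouse 7. In that order they had 20195, 21901, 21543 and 22264 genes detected, the fewest in mRNA, with 23619 in the next library. Calls of members that were lost without these 4 mice are named beside the result. Markers of other cells moved with diet and with 5+3. The summed footprint level of 9 neutrophil genes was 104 to 1172 CPM in BCAA-free 5+3, 694 to 2123 in AA 5+3, 838 to 1398 in BCAA-free vehicle and 992 to 1360.2 CPM in AA vehicle. For 8 erythroid genes it was 7.33 to 25.7, 94.4 to 151, 112 to 214 and 32.4 to 145 CPM in the same order, and for 12 monocyte and macrophage genes 77.8 to 217, 148 to 188, 252 to 359 and 317 to 697 CPM. Each of these markers had counts in every group. Markers of T and NK cells, B cells, megakaryocytes and stroma summed to at most 11.0, 22.2, 9.32 and 33.4 CPM in a footprint library and to at most 137, 102, 7.51 and 38.4 CPM in an mRNA library. Between the diets under 5+3, 5 of 9 neutrophil and 5 of 5 tested erythroid genes were lower in footprints, and 2 of 11 monocyte genes were lower and 1 higher. Of all genes 15.8% were lower there and 12.5% higher, near the shares of the monocyte genes. With 5+3, 7 of the 11 monocyte genes fell in footprints on the AA diet and 6 on the BCAA-free diet, with none higher. Of the 9 neutrophil genes 1 and 8 fell. In these 2 comparisons 6.61% and 20.6% of all genes passed in either direction. The part of these other cell types in the results below was not tested. In a sorted population, fewer cells of a type and less RNA per cell cannot be told apart.

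The sequences before the starts of 3 genes are shown. Pdha1 and Dlat moved in opposite directions between the diets under 5+3, and Pdk1 is a member known to answer to hypoxia. Each is the 250 bases before an annotated start, 5′ to 3′ on the gene's strand, from RefSeq on GRCm38.p6. For Pdk1 that start lies within the gene span given below, so the last bases of its window fall inside the span. Capitals mark GCGTG and ACGTG, the core letters to which the hypoxia-inducible factor is known to bind, searched on both strands (CACGC and CACGT on the other), with overlaps counted. They lie at chrX:160138431-160138680 on the minus strand for Pdha1, at chr9:50659781-50660030 on the minus strand for Dlat, and at chr2:71872974-71873223 on the plus strand for the first start of Pdk1.
Pdha1: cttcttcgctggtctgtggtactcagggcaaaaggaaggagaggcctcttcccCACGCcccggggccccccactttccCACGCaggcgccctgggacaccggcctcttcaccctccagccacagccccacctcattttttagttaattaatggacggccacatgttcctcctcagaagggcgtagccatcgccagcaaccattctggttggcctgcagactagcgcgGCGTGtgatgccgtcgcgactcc
Dlat: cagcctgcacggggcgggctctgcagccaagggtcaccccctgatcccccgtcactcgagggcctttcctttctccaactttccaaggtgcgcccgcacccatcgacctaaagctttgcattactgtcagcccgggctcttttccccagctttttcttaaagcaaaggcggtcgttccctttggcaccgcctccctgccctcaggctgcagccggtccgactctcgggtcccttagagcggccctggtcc
Pdk1: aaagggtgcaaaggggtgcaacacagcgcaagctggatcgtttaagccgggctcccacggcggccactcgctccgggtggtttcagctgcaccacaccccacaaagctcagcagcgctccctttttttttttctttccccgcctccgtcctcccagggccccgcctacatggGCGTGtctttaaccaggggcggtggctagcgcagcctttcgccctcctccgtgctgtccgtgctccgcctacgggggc
Pdha1 had 3 matches in its window, Dlat none, and Pdk1 1, before the first of its 2 listed starts. Of the members not shown, Ogdh, also lower in footprints on the BCAA-free diet under 5+3, had 2 to 4 matches in each window. Pdk3 had 4, Pdhx and Pdhb 2 each, and Cs none. Of the 8 members with an entry, 6 held a match of either kind before at least 1 start. Among 32851 windows of the same length 38.6% held either, 28.2% GCGTG and 16.6% ACGTG. These shares are per window, while the members were counted per gene over all their starts, so they cannot be set against each other. A match describes letters and shows no binding.

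Pdha1, the E1α subunit and the target of the kinases, was higher in footprints on the BCAA-free diet under 5+3. The gene lies at chrX:160122219-160138430 (GRCm38). In AA 5+3 its footprint levels were 69.0, 70.3, 69.1 and 66.0 CPM. In BCAA-free 5+3 the lowest of the 7 mice had 84.97, the median 92.4 and the highest 101 CPM. The lowest BCAA-free mouse thus lay above the highest AA mouse, and the 2 groups did not overlap. The difference was 0.43 ± 0.09 on the log2 scale, 1.35-fold (edgeR quasi-likelihood, adjusted p = 0.000877). In all, 28.3% of 15723 genes passed in this comparison (12.5% higher and 15.8% lower) and 17.5% did not overlap between the groups. The call held in each of the 21 fits that left out 1 mouse (0.40 to 0.46) and under the 9 other settings (0.38 to 0.52).

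By mean, the vehicle groups lay between these. AA vehicle mice had 68.7, 67.8, 88.0, 72.0 and 72.2 CPM of Pdha1 footprints, and BCAA-free vehicle mice 77.1, 83.8, 88.9, 67.4 and 84.4 CPM. These 2 groups overlapped, and their difference of 0.12 (95% interval −0.06 to 0.30) was not called. By mean, the order was AA 5+3 (68.6 ± 1.83), AA vehicle (73.8 ± 8.22), BCAA-free vehicle (80.3 ± 8.35) and BCAA-free 5+3 (92.3 ± 5.58), and each neighbouring pair overlapped. The change with 5+3 was 0.20 ± 0.08 on the BCAA-free diet (adjusted p = 0.0846) and −0.11 ± 0.09 on the AA diet (adjusted p = 0.54). The first of these passed under scaling to protein-coding genes (0.29, adjusted p = 0.018) and without AA vehicle mouse 3 (0.21, adjusted p = 0.046), and its adjusted p ranged from 0.018 to 0.284 over all alternatives. The interaction of diet with 5+3 was 0.31 ± 0.12 (adjusted p = 0.13).

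In mRNA the Pdha1 means were 119.7 ± 19.0 CPM in AA vehicle, 123 ± 12.0 in AA 5+3, 121 ± 22.1 in BCAA-free vehicle and 170.5 ± 31.0 in BCAA-free 5+3. The diets under 5+3 differed by 0.47 ± 0.18, close in size to the footprint difference but not called (adjusted p = 0.235). The range was 107 to 136 CPM in AA 5+3 and 122 to 201 CPM in BCAA-free 5+3, so that the groups overlapped. Translational efficiency, the footprint change relative to the mRNA change of the same mice, differed by −0.03 ± 0.22 for Pdha1.

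Pdhb, the E1β subunit that pairs with E1α, did not follow Pdha1 in footprints. The gene lies at chr14:8165991-8173303. Its means were 68.2 ± 3.00 in AA vehicle, 70.2 ± 4.88 in AA 5+3, 70.0 ± 7.19 in BCAA-free vehicle and 67.7 ± 5.62 CPM in BCAA-free 5+3. All 4 groups overlapped. Between the diets under 5+3 the difference was −0.05 (95% interval −0.23 to 0.12), with the upper end below the 0.43 estimated for Pdha1. The ratio of Pdha1 to Pdhb footprint counts within a library was 1.08 ± 0.125 in AA vehicle, 0.980 ± 0.067 in AA 5+3, 1.15 ± 0.0896 in BCAA-free vehicle and 1.38 ± 0.181 in BCAA-free 5+3. It was 0.920 to 1.08 in AA 5+3 and 1.16 to 1.63 in BCAA-free 5+3, without overlap, and is given as a description with no test. Pdha1 alone already did not overlap between these groups, so the ratio is not a separate result.

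Dlat, the E2 core that transfers the acetyl group, rose with 5+3 on the AA diet and was lower on the BCAA-free diet under 5+3. It lies at chr9:50634633-50659780. Its footprint levels were 21.6, 32.0, 31.9, 31.9 and 29.2 CPM in AA vehicle and 41.9, 38.6, 49.9 and 35.7 CPM in AA 5+3. Every treated mouse on the AA diet lay above every vehicle mouse. The rise was 0.48 ± 0.12, 1.40-fold (adjusted p = 0.0136), where 6.61% of genes passed (3.49% higher) and 10.3% did not overlap. Without AA 5+3 mouse 3, the highest, the change was 0.40 and no longer called (adjusted p = 0.0663). Over the other fits that left out 1 mouse and the 9 other settings the call held, and over all alternatives the adjusted p ranged from 0.00504 to 0.0663.

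On the BCAA-free diet the vehicle mice had 28.7, 32.7, 33.9, 33.0 and 39.0 CPM of Dlat footprints. The 5+3 mice had a lowest value of 29.8, a median of 32.2 and a highest of 35.6 CPM, and the change with 5+3 was −0.05 (95% interval −0.26 to 0.16). Under 5+3, each BCAA-free mouse lay below the AA mice, although the highest of the former (35.64 CPM) nearly reached the lowest of the latter (35.65 CPM). Dlat fell by 0.35 ± 0.11 on the log2 scale between the diets, 1.28-fold lower (adjusted p = 0.0166). That call was lost without AA 5+3 mouse 1 (−0.33, adjusted p = 0.06) or mouse 3 (−0.26, adjusted p = 0.101), under protein-coding scaling (−0.26, adjusted p = 0.0809) and with no filter (−0.34, adjusted p = 0.0629), which spans 0.00889 to 0.101 over all alternatives. The interaction itself was −0.53 ± 0.16 (adjusted p = 0.0381), in a comparison where 7.09% of genes passed. It was lost in 15 of the 21 fits that left out 1 mouse (−0.59 to −0.44) and under 5 of the 8 other settings (−0.55 to −0.43), among them the exclusion of the 4 mice that stood apart in mRNA (−0.52, adjusted p = 0.175), with an adjusted p of 0.0299 to 0.175, and the sign was negative in each. By mean footprint level the order was AA vehicle (29.3 ± 4.49), BCAA-free 5+3 (32.4 ± 2.39), BCAA-free vehicle (33.5 ± 3.70) and AA 5+3 (41.5 ± 6.12 CPM), and each neighbouring pair overlapped.

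Within a library, the ratio of Dlat to Pdha1 footprint counts was 0.399 ± 0.063 in AA vehicle, 0.604 ± 0.0835 in AA 5+3, 0.419 ± 0.053 in BCAA-free vehicle and 0.352 ± 0.0366 in BCAA-free 5+3. The lowest AA 5+3 library had 0.540, above the highest of the other groups (0.489). Against Pdhb the ratio of Dlat was 0.596 ± 0.122 in AA 5+3 and 0.431 to 0.480 by mean in the other 3 groups. These are ratios of counts that share a library, described with no test. They restate the levels of these genes given above, and how many other gene pairs would separate in this way was not counted.

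Pdhx, which binds the E3 subunit to the core, passed in no footprint comparison. It lies at chr2:103021055-103073513. Its means were 12.7 ± 0.97 in AA vehicle, 13.1 ± 1.75 in AA 5+3, 15.0 ± 1.18 in BCAA-free vehicle and 12.3 ± 2.43 CPM in BCAA-free 5+3, and all groups overlapped. Its counts were only 32 to 124 per footprint library. The change with 5+3 on the BCAA-free diet was −0.27 (95% interval −0.54 to −0.01, adjusted p = 0.128).

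**Figure D1:**
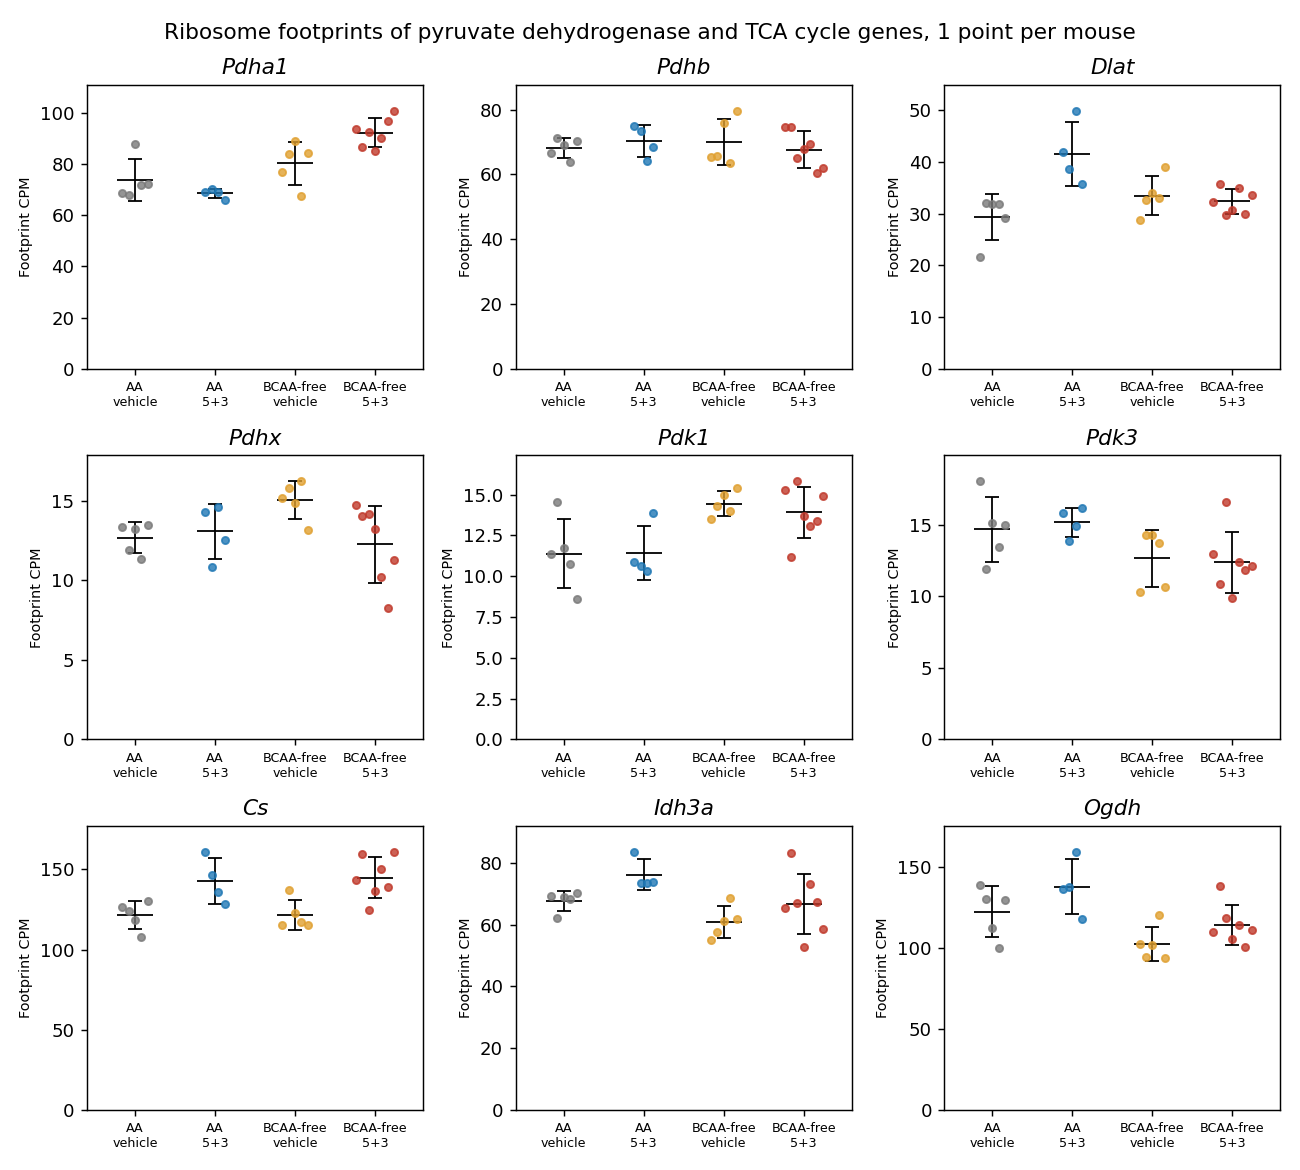
Footprint level (CPM, vertical axis from 0) of the 9 genes in the 4 groups, 1 point per mouse, with mean and SD. Pdha1 in BCAA-free 5+3 (84.97 to 101 CPM) lies above AA 5+3 (66.0 to 70.3 CPM), and Dlat in AA 5+3 (35.7 to 49.9 CPM) lies above AA vehicle (21.6 to 32.0 CPM).

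The kinases Pdk1 and Pdk3, which phosphorylate and inactivate E1α, passed in no footprint comparison. Pdk1 lies at chr2:71873215-71903858. It had 11.4, 14.5, 11.7, 10.7 and 8.58 CPM in AA vehicle and 10.9, 10.6, 10.3 and 13.9 CPM in AA 5+3. In BCAA-free vehicle it had 13.5, 14.3, 15.0, 14.0 and 15.4 CPM, and in BCAA-free 5+3 a lowest value of 11.2, a median of 13.7 and a highest of 15.8 CPM. Both BCAA-free means (14.4 ± 0.762 and 13.9 ± 1.58) lay above both AA means (11.4 ± 2.14 and 11.4 ± 1.66), with overlapping groups. The diet difference in Pdk1 footprints was 0.37 ± 0.14 under vehicle (adjusted p = 0.146) and 0.27 ± 0.13 under 5+3 (adjusted p = 0.132). The latter passed under protein-coding scaling (0.36, adjusted p = 0.0368) and in none of the other alternatives, which reached an adjusted p of 0.394. With 5+3 the Pdk1 change was 0.04 (95% interval −0.26 to 0.34) on the AA diet and −0.06 (−0.31 to 0.19) on the BCAA-free diet.

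Pdk3 lies at chrX:93764616-93832150, and its BCAA-free means were the lower ones, with overlapping groups. Its footprint means were 14.7 ± 2.28 in AA vehicle, 15.2 ± 1.02 in AA 5+3, 12.7 ± 2.01 in BCAA-free vehicle and 12.4 ± 2.13 CPM in BCAA-free 5+3. Under 5+3 the diets differed by −0.29 ± 0.14 (adjusted p = 0.121), and the difference passed only without BCAA-free 5+3 mouse 3 (−0.36, adjusted p = 0.0387), with an adjusted p of up to 0.333 in the others. The counts were 29 to 125 per library for Pdk1 and 32 to 123 for Pdk3, so that differences of this size were near the limit of the depth. Of the other 2 kinases, Pdk2 had at most 13 counts in a footprint library and was tested in mRNA only, and Pdk4 had at most 6 and was not tested.

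Citrate synthase, the entry of the cycle, rose in footprints with 5+3 on the BCAA-free diet. Cs lies at chr10:128337727-128362482. BCAA-free vehicle mice had 115.5, 137.2, 123.1, 116.9 and 115.3 CPM, and the 5+3 mice a lowest value of 125, a median of 143 and a highest of 161 CPM. Of the 35 pairs of a treated and a vehicle mouse, 33 had the treated mouse higher. The change was 0.25 ± 0.08, 1.19-fold (adjusted p = 0.0294), where 20.6% of genes passed. It was lost without BCAA-free vehicle mouse 1, 4 or 5 (0.24, 0.24 and 0.25, adjusted p = 0.0593, 0.0599 and 0.0682), without the 4 mice that stood apart in mRNA (0.27, adjusted p = 0.189), and with no filter or the replicate block. Over all alternatives the adjusted p was 0.00611 to 0.189.

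On the AA diet the Cs footprint levels were 126, 124, 118, 108 and 131 CPM with vehicle and 161, 146, 136 and 128 CPM with 5+3. The change of 0.24 ± 0.09 was of like size but not called (adjusted p = 0.125), and the interaction was 0.01 (95% interval −0.24 to 0.27). Csl, a near-identical copy of Cs, held 18.5% of the footprint counts of both together and 0.0482% of the mRNA counts, so that the split of short reads between them is uncertain. With the 2 genes summed, the change on the BCAA-free diet was 0.25 ± 0.08 (adjusted p = 0.0341). By mean, the order was AA vehicle (121 ± 8.73), BCAA-free vehicle (122 ± 9.28), AA 5+3 (143 ± 14.2) and BCAA-free 5+3 (145 ± 13.0 CPM), in which the vehicle pair and the 5+3 pair each overlapped.

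Idh3a, the catalytic subunit that makes 2-oxoglutarate, did not pass in footprints. It lies at chr9:54586511-54604662. AA vehicle mice had 69.5, 62.2, 69.1, 68.2 and 70.2 CPM, and AA 5+3 mice 83.7, 73.6, 73.7 and 74.0 CPM. These groups did not overlap, which was so for 10.3% of genes, but the change of 0.17 ± 0.11 was not called (adjusted p = 0.373). BCAA-free vehicle (60.9 ± 5.19 CPM) and BCAA-free 5+3 (66.8 ± 9.79 CPM) overlapped each other.

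Ogdh, the next enzyme of the cycle, was lower in footprints on the BCAA-free diet under 5+3. It lies at chr11:6291597-6359094. AA 5+3 mice had 136, 138, 159 and 118 CPM, and BCAA-free 5+3 mice a lowest value of 100.4, a median of 111 and a highest of 138 CPM. The groups overlapped, with the BCAA-free mouse higher in 4 of 28 pairs. The fall was −0.27 ± 0.10, 1.20-fold lower (adjusted p = 0.0496), at the edge of the threshold. The call was lost in 13 of the 21 fits that left out 1 mouse and under 7 of the 9 other settings. Among these were protein-coding scaling (−0.17, adjusted p = 0.18) and the exclusion of the 4 mice that stood apart in mRNA (−0.24, adjusted p = 0.102). Over all alternatives the adjusted p was 0.0192 to 0.186, with a negative sign throughout. The difference under vehicle was close in size, −0.25 ± 0.10 (adjusted p = 0.198), from means of 122 ± 15.6 in AA vehicle and 102 ± 10.7 CPM in BCAA-free vehicle, and the interaction was −0.02 (95% interval −0.32 to 0.28).

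Counted over the 9 members in footprints, 3 passed between the diets under 5+3, 1 higher (Pdha1) and 2 lower (Dlat and Ogdh), where 28.3% of all genes passed. That share is near the background. With no filter 1 member passed, Pdha1. Under protein-coding scaling Pdha1 and Pdk1 passed, both higher, and Dlat and Ogdh did not (adjusted p = 0.0809 and 0.18). Dlat alone passed with 5+3 on the AA diet, Cs alone with 5+3 on the BCAA-free diet, and Dlat alone for the interaction. Between the diets under vehicle none passed by edgeR or by DESeq2, where 2.04% of all genes passed. At an unadjusted p under 0.05 there were 2 members there, beside 17.5% of all genes. The median change of the 9 was −0.07 under 5+3 and 0.04 under vehicle, beside 0.00 and 0.00 over all genes. For the BCAA-free comparisons a scaling to protein-coding genes moved the balance of all footprint calls, from 42.5% to 64.0% higher for 5+3 and from 44.2% to 61.3% higher between the diets under 5+3.

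In mRNA, all 9 members had a positive change with 5+3 on the BCAA-free diet, from 0.43 to 1.36, and 4 were called. Idh3a rose from 86.4, 42.6, 52.9, 147 and 103 CPM in vehicle mice to a lowest value of 131, a median of 171 and a highest of 371 CPM. Its change was 1.36 ± 0.34, 2.56-fold (adjusted p = 0.0211), with the treated mouse higher in 34 of 35 pairs. Pdk3 rose from 16.0, 8.88, 8.48, 19.9 and 7.29 CPM to a lowest value of 13.1, a median of 31.0 and a highest of 39.9 CPM (1.28 ± 0.35, adjusted p = 0.0286). In each gene only 1 treated mouse lay within the vehicle range.

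Dlat mRNA rose by 0.97 ± 0.29 (adjusted p = 0.0406), from 22.04, 34.7, 41.2, 40.0 and 32.5 CPM to a lowest value of 27.4, a median of 66.4 and a highest of 103 CPM. Pdhb mRNA rose by 0.61 ± 0.19 (adjusted p = 0.0452), from 208, 133, 140.3, 208 and 136 CPM to 186, 225 and 331 CPM as lowest, median and highest value. The treated mouse was higher in 31 of 35 pairs for Dlat and in 33 of 35 for Pdhb. The 4 calls compare with 8.56% of 21114 genes called and 4.33% called higher, and the median change of the 9 was 0.50, beside −0.01 over all genes. The median SE was 0.22 for the members and 0.46 over all genes, so a change of like size was easier to call in the members. The 5 members not called had changes of 0.43 to 0.50 and adjusted p of 0.0614 (Pdha1) to 0.202 (Pdk1). Of these, Pdha1 was called by DESeq2 (0.46, adjusted p = 0.030), with the replicate block (0.65, adjusted p = 0.0176) and without BCAA-free 5+3 mouse 6 or 7 (adjusted p = 0.0377 and 0.038). Cs was called by DESeq2 (0.46, adjusted p = 0.0416), with the block (0.58, adjusted p = 0.0338) and without BCAA-free 5+3 mouse 3 (0.57, adjusted p = 0.0305), and Ogdh with the block alone (0.68, adjusted p = 0.0312). The block in effect left out BCAA-free 5+3 mice 6 and 7, whose numbers occur in no other group.

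None of the 4 calls held without the 4 mice that stood apart, which leaves 2 vehicle mice on the BCAA-free diet. The changes then were 1.23 for Idh3a (adjusted p = 0.271), 1.15 for Pdk3 (adjusted p = 0.293), 0.84 for Dlat (adjusted p = 0.335) and 0.55 for Pdhb (adjusted p = 0.341). Over the other alternatives the adjusted p was 0.00192 to 0.0618 for Idh3a, 0.00431 to 0.0745 for Pdk3, 0.0111 to 0.0978 for Dlat and 0.020 to 0.114 for Pdhb. Dlat was also lost with only the compared groups (adjusted p = 0.0843) and without the 2 mice with the shallowest footprint libraries (adjusted p = 0.0537). Pdhb was also lost in both of these (adjusted p = 0.111 and 0.0678), under median-ratio and protein-coding scaling (0.0551 and 0.0604), with no filter (0.104) and with the replicate block (0.0634). Leaving out 1 mouse at a time, Idh3a was lost in 3 fits (BCAA-free vehicle mice 2 and 3 and BCAA-free 5+3 mouse 5, adjusted p of 0.051 to 0.0618), Pdk3 in 7, Dlat in 9 and Pdhb in 13 of 21. The sign was positive in each fit.

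The mRNA levels of Cs, Ogdh, Pdhx and Pdk1 were not called in any comparison by edgeR as reported, beside the calls of Cs and Ogdh under other settings given above. Cs had 120.3 ± 24.6 CPM in AA vehicle, 148 ± 6.05 in AA 5+3, 120.5 ± 18.9 in BCAA-free vehicle and 169.7 ± 36.9 in BCAA-free 5+3. Ogdh had 99.4 ± 23.3, 98.9 ± 13.2, 80.4 ± 11.3 and 110.2 ± 38.6 CPM in the same groups, and Pdhx 36.1 ± 9.74, 35.3 ± 5.05, 31.7 ± 7.76 and 42.9 ± 7.34 CPM. Pdk1 had 39.2 ± 13.9, 43.9 ± 9.23, 45.7 ± 9.25 and 64.8 ± 23.5 CPM. In each of these 4 genes the BCAA-free 5+3 mean was the highest, and its range overlapped that of the other groups.

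In the other mRNA comparisons no member passed by edgeR or by DESeq2, also with 5+3 on the AA diet, where 0.0616% of genes passed. At an unadjusted p under 0.05 the members numbered 0 for 5+3 on the AA diet, 0 for the diets under vehicle, 2 for the diets under 5+3 and 1 for the interaction, beside 5.89%, 11.2%, 13% and 12.1% of all genes at the same threshold. After adjustment 0% of all genes passed for the diets under vehicle, 1.24% for the diets under 5+3 and 0.0758% for the interaction. Pdhb had the smallest unadjusted p of the interaction, with 0.87 ± 0.28 (adjusted p = 0.266). The SE of a member was 0.25 by median for 5+3 on the AA diet in mRNA and 0.11 in footprints, so that mRNA differences of the size seen in footprints were below what these libraries could show.

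**Figure D2:**
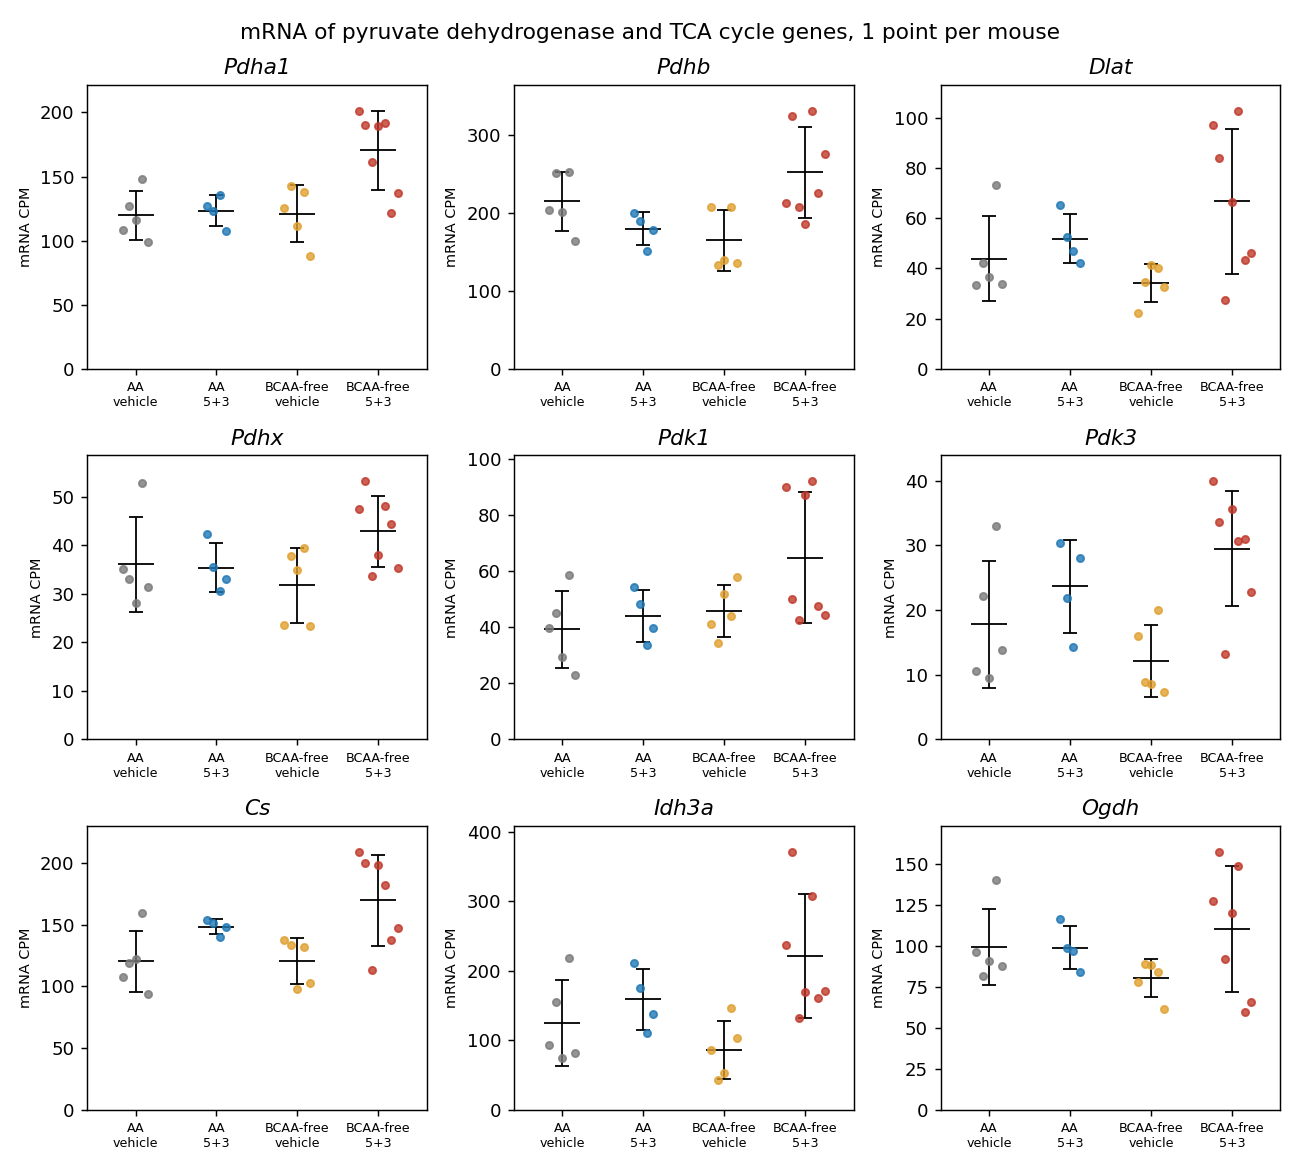
mRNA level (CPM, vertical axis from 0) of the 9 genes in the 4 groups, 1 point per mouse, with mean and SD. The BCAA-free 5+3 mice spread widely, for Idh3a from 131 to 371 CPM and for Dlat from 27.4 to 103 CPM, while the BCAA-free vehicle mice had 42.6 to 147 and 22.04 to 41.2 CPM.

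Translational efficiency fell in 5 members with 5+3 on the BCAA-free diet, the comparison in which the mRNA of 4 members rose and Cs alone rose in footprints. Idh3a fell by 1.28 ± 0.31 on the log2 scale (adjusted p = 0.025) and Pdk3 fell by 1.38 ± 0.41 (adjusted p = 0.0406). Dlat fell by 0.91 ± 0.27, Pdhx fell by 0.75 ± 0.24 and Pdhb fell by 0.66 ± 0.21, with adjusted p of 0.0409 to 0.0458. For Idh3a, Pdk3, Dlat and Pdhb these are members whose mRNA rose, and their footprint changes were 0.14, −0.03, −0.05 and −0.05. In this comparison 10.3% of 12097 genes passed and 7.63% fell. The 1250 genes called ranged from 7 to 2243 with 1 mouse left out and from 0 to 1590 under the other settings. The median was −0.24 over all genes and −0.66 over the 9. Under protein-coding scaling the median of all genes was −0.11, a shift of 0.12, and 1 member passed. No member passed without the 4 mice that stood apart (Idh3a −1.26, adjusted p = 0.299, against 0.00222 to 0.0715 under the other alternatives), and the number was 0 to 5 when 1 mouse was left out. In the other 4 comparisons of translational efficiency no member passed, and 0, 0, 2 and 4 had an unadjusted p under 0.05 for 5+3 on the AA diet, the diets under vehicle, the diets under 5+3 and the interaction. At that threshold 2.6%, 9.15%, 8.31% and 13.3% of all genes passed, and after adjustment 0%, 0%, 0.0165% and 0.00827%.

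**Figure D3:**
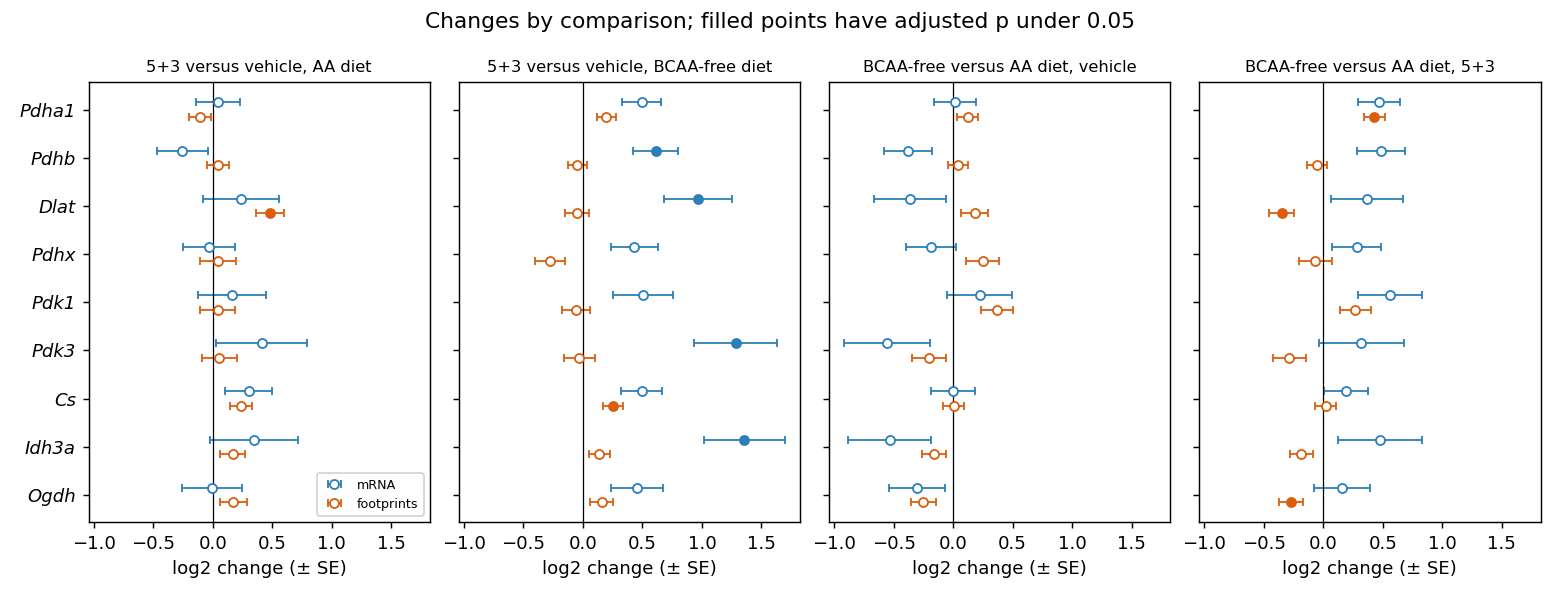
log2 change ± SE of the 9 genes in mRNA and footprints for 4 comparisons, 1 panel each, with filled points past an adjusted p of 0.05. With 5+3 on the BCAA-free diet the mRNA changes run from 0.43 to 1.36 and the footprint changes from −0.27 to 0.25.

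Around the complex, Pdp1, a phosphatase that reactivates E1α, was the 1 of 6 tested genes of its list to pass between the diets under 5+3 in footprints. It was higher on the BCAA-free diet by 0.57 ± 0.19 (adjusted p = 0.0228), from 4.72 ± 0.687 to 6.93 ± 1.36 CPM. Of all genes 28.3% passed in this comparison. The list of 9 also held Dld, Pdp2, Pdpr and the pyruvate carriers Mpc1 and Mpc2, which did not pass. Pdk2, Pdk4 and the testis copy Pdha2 were not tested in footprints. Dld, the E3 shared by these complexes, had 101 ± 5.19 CPM in AA 5+3 and 98.1 ± 15.3 CPM in BCAA-free 5+3. In the other 4 footprint comparisons none of the 6 passed.

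Among the genes that attach the lipoyl group, 2 of 4 were higher in footprints on the BCAA-free diet under 5+3. Of all genes 12.5% were higher there. Lias, lipoyl synthase, had 11.6 ± 2.42 CPM in AA 5+3 and 16.6 ± 1.71 CPM in BCAA-free 5+3 (0.51 ± 0.13, adjusted p = 0.0051). Lipt1, a lipoyl transferase, had 1.21 ± 0.461 and 2.38 ± 0.556 CPM (0.89 ± 0.31, adjusted p = 0.0315), from 2 to 18 counts per library in these 2 groups. Gcsh and Lipt2 did not pass. Without the 4 mice that stood apart in mRNA, 1 of the 4 passed, Lias, and under protein-coding scaling 3 did. Lias also rose with 5+3 on the BCAA-free diet (0.39 ± 0.12, adjusted p = 0.0244), a call lost without those mice. It was the 1 of 4 to pass there, where 20.6% of all genes passed. The median of the 4 between the diets under 5+3 was 0.48, beside 0.00 over all genes.

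Of 13 other genes of the TCA cycle, 2 passed between the diets under 5+3 in footprints, both higher on the BCAA-free diet. Of all genes 28.3% passed there, a larger share. Suclg2, a β subunit of succinyl-CoA ligase, differed by 0.39 ± 0.09 (adjusted p = 0.00164) and Idh3g, a regulatory partner of Idh3a, by 0.30 ± 0.08 (adjusted p = 0.00757). The others did not pass, and the median of the 13 was 0.02. With 5+3 on the BCAA-free diet 3 of the 13 rose and none fell, where 20.6% of all genes passed, a like share. The 3 were Suclg2 (0.44 ± 0.08), Idh3b (0.33 ± 0.09) and Mdh2 (0.26 ± 0.07), with adjusted p of 0.000583 to 0.0167. Under protein-coding scaling 5 of the 13 rose, and without the 4 mice that stood apart 0 passed. On the AA diet Mdh2, mitochondrial malate dehydrogenase, alone of the 13 rose with 5+3 (0.28 ± 0.09, adjusted p = 0.0498), where 6.61% of all genes passed. That call was lost under protein-coding scaling and without those mice. Under vehicle none of the 13 passed between the diets.

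Of 11 genes for other uses of pyruvate and other entries to the cycle, 3 passed between the diets under 5+3 in footprints, a share near the 28.3% of all genes. Got2, mitochondrial aspartate aminotransferase, was higher (0.32 ± 0.09, adjusted p = 0.0141). Slc25a1, the citrate carrier, and Me2, mitochondrial malic enzyme, were lower (−0.53 ± 0.10 and −0.29 ± 0.10, adjusted p = 0.000385 and 0.0264). Me2 was lost under protein-coding scaling. Ldha, the lactate dehydrogenase subunit that competes for pyruvate, rose with 5+3 on both diets, by 0.66 ± 0.10 on the AA diet and by 0.61 ± 0.09 on the BCAA-free diet (adjusted p = 0.00034 and 7.9e-05), and did not pass between the diets. Ldhb, the other lactate dehydrogenase subunit, fell with 5+3 on the AA diet (−1.14 ± 0.34, adjusted p = 0.046). With 5+3 on the BCAA-free diet Got2 and Glud1, glutamate dehydrogenase, also rose (0.32 ± 0.09 and 0.21 ± 0.07, adjusted p = 0.0123 and 0.0443), and both were lost without the 4 mice that stood apart. The interaction passed for Glud1 (0.41 ± 0.11, adjusted p = 0.0301) and Slc25a1 (−0.47 ± 0.15, adjusted p = 0.0494), and neither passed without those mice. That of Slc25a1 was also lost under both other scalings. Of the 11, 2 passed with 5+3 on the AA diet, 3 with 5+3 on the BCAA-free diet and 2 for the interaction. Of all genes 6.61%, 20.6% and 7.09% passed in these comparisons.

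In the sister complex for branched-chain 2-oxoacids, 3 of 5 genes passed between the diets under 5+3 in footprints, where 28.3% of all genes passed. Dbt, the E2 of the complex, was higher by 0.65 ± 0.15 (adjusted p = 0.00208) and Bckdha, its E1α, by 0.55 ± 0.16 (adjusted p = 0.0122). Ppm1k, its phosphatase, was lower (−0.75 ± 0.24, adjusted p = 0.0211), a call lost without the 4 mice that stood apart in mRNA. Bckdhb and the kinase Bckdk did not pass. Under vehicle none of the 5 passed between the diets. With 5+3, Bckdha fell on the AA diet (−0.70 ± 0.17, adjusted p = 0.0145) and Ppm1k on the BCAA-free diet (−0.77 ± 0.22, adjusted p = 0.0169), the latter lost without those mice. Each was the 1 of 5 to pass, where 6.61% and 20.6% of all genes passed.

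Of 16 hypoxia-inducible genes tested in footprints, 8 were lower on the BCAA-free diet under 5+3 and none higher, where 15.8% of all genes were lower. P4ha1, a collagen prolyl hydroxylase subunit, had 45.9 ± 5.61 CPM in AA 5+3 and 12.4 ± 3.12 CPM in BCAA-free 5+3 (−1.88 ± 0.16, adjusted p = 6.83e-09). Ero1l, an endoplasmic reticulum oxidase, differed by −0.53 ± 0.10, Slc2a1, a glucose transporter, by −0.65 ± 0.16, and Pfkfb4, a regulator of glycolysis, by −1.25 ± 0.28 (adjusted p = 0.000303, 0.00298 and 0.00183). The median of the 16 was −0.34, beside 0.00 over all genes. Under protein-coding scaling 5 of the 16 were lower, with a median of −0.25, and without the 4 mice that stood apart 6 were, with none higher in either. Pdk1 is not counted in this list, and its footprint difference of 0.27 ± 0.13 was not called. With 5+3 on the AA diet P4ha1 rose by 0.99 ± 0.17, Pgk1 by 0.51 ± 0.08 and Slc2a1 by 0.62 ± 0.17, and Bnip3l fell (−0.60 ± 0.13), with adjusted p of 0.00061 to 0.0285. These were 3 higher and 1 lower of the 16, where 6.61% of all genes passed. With 5+3 on the BCAA-free diet Pgk1 rose (0.22 ± 0.07) and Bnip3l and P4ha1 fell (−0.59 ± 0.11 and −0.46 ± 0.16), with adjusted p of 0.000959 to 0.0412. These were 1 higher and 2 lower of the 16, a share near the 20.6% of all genes that passed. None of these 3 passed without the 4 mice, and P4ha1 was also lost under protein-coding scaling. Under vehicle Vegfa, a growth factor of blood vessels, was lower on the BCAA-free diet (−0.76 ± 0.20, adjusted p = 0.0385), again lost without those mice. It was the 1 of 16 to pass, where 2.04% of all genes passed. The footprint interaction was −1.45 ± 0.23 for P4ha1 (adjusted p = 0.00102) and −0.47 ± 0.14 for Ero1l (adjusted p = 0.0395), the latter lost under protein-coding scaling and without the 4 mice. No other of the 16 passed for the interaction, where 7.09% of all genes passed. In mRNA 2 of 17 passed between the diets under 5+3, P4ha1 (−1.64 ± 0.29) and Ankrd37 (−2.26 ± 0.56), both lower (adjusted p = 0.00415 and 0.0435). Of all genes 1.24% passed there in mRNA.

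In mRNA the other calls of these lists were all for 5+3 on the BCAA-free diet, where 8.56% of all genes passed, and none held without the 4 mice that stood apart. Of 4 lipoylation genes 1 rose, Lipt2 (0.96 ± 0.28), and of the 13 genes of the TCA cycle 2 rose, Suclg1 (1.24 ± 0.36) and Suclg2 (1.02 ± 0.30). Of the 11 genes for other uses of pyruvate 4 rose, Got2 (1.47 ± 0.31), Me2 (1.43 ± 0.31), Ldha (1.00 ± 0.23) and Pkm, pyruvate kinase (1.12 ± 0.29). Bckdk was the 1 of 5 of its complex to rise (0.95 ± 0.27). Of 17 hypoxia-inducible genes Ero1l, Slc2a1 and Pgk1 rose (1.41 ± 0.35, 1.53 ± 0.39 and 0.81 ± 0.24) and Hk2, a hexokinase, fell (−1.36 ± 0.32). The adjusted p of these 12 genes was 0.0108 to 0.0427. None of 7 tested genes around the complex passed. Translational efficiency passed in the same comparison only. It fell in 1 of 4 lipoylation genes, 2 of 13 genes of the TCA cycle and 2 of 11 for other uses of pyruvate. It also fell in 1 of 5 of the sister complex and 5 of 16 hypoxia-inducible genes. It rose in 1 of the 13 and 1 of the 16, and passed in none of 6 around the complex. Over all genes 10.3% passed and 7.63% fell. Without the 4 mice that stood apart, 0 of all genes passed in translational efficiency for this comparison.

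**Figure D4:**
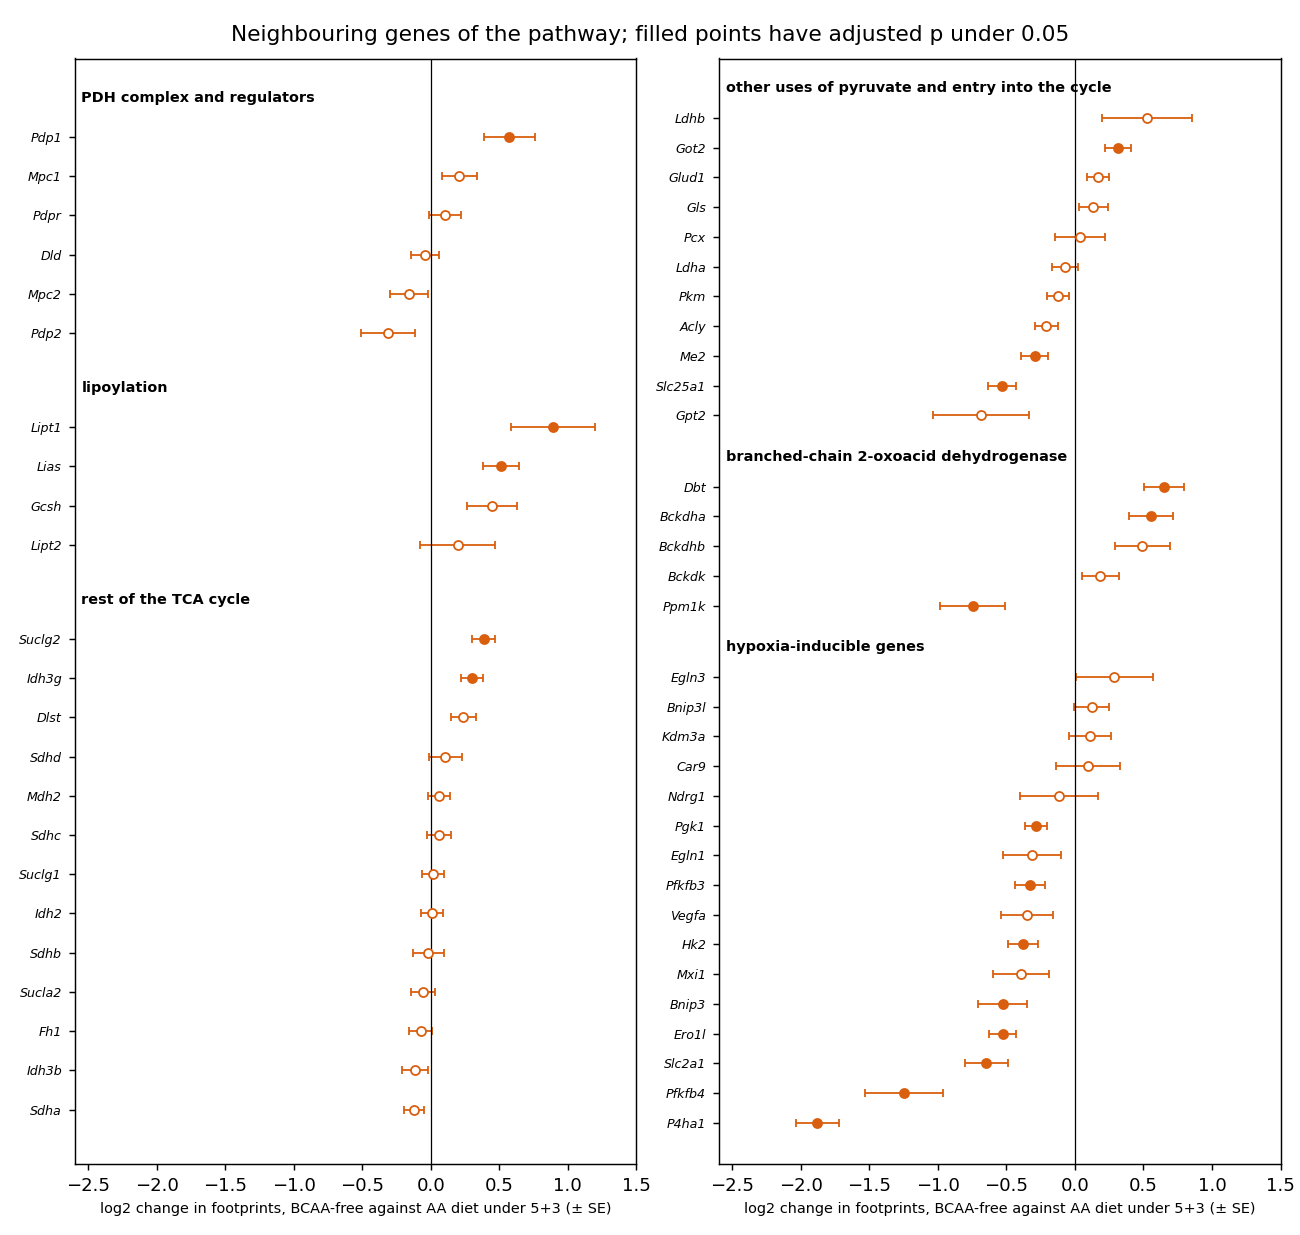
log2 footprint change ± SE between the diets under 5+3 (BCAA-free against AA) for the genes around pyruvate dehydrogenase, by list, with filled points past an adjusted p of 0.05. Changes run from −1.88 (P4ha1) to 0.89 (Lipt1), and the filled hypoxia-inducible genes all lie left of 0.

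The genes whose footprint pattern over the 21 mice was closest to that of a member were looked up among 5933 genes, each centred on its mean log2 level, by the root mean square (RMS) difference. For Pdha1 they were Cpsf6 (RMS 0.0977), Snx4 (0.117) and Rlim (0.117), where the median over all candidates was 0.312. For Dlat they were Rars, Kdelr2 and Ccz1 (0.147 to 0.152), and for Pdk1 Atp5o, Kyat3 and Tmem128 (0.142 to 0.147). Kars and Atp5b were closest to Cs (0.106 each) with Eif3b next (0.108), and Nup205 (0.0949), Mcm5 (0.113) and Dnmt1 (0.116) to Ogdh. Among the members, Idh3a and Ogdh were the closest pair (0.157) and Pdk1 and Ogdh the farthest (0.382), with Pdha1 and Dlat at 0.318. These values share the libraries and their depth, carry no test, and say nothing of shared function.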

How the data were processed

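The authors deposited raw counts per gene, whole numbers with no normalization, for 42 libraries. Tools named in the submitters' processing notes are featureCounts, STAR, Bowtie2, cutadapt and SAMtools, with build GRCm38 (mm10). For the role of each, the annotation and strandedness, nothing is given in the sources used here, so reads of overlapping genes cannot be told apart. A symbol was found for 55141 of the 55487 identifiers (99.4%). Coordinates and sequences are from RefSeq on GRCm38.p6.

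The tests ran in edgeR 4.0.16 under R 4.3.3. Low genes were removed by filterByExpr (minimum count 10, minimum total 15), scaled by TMM and tested by the robust quasi-likelihood test, all 4 groups in 1 fit per kind, on 21114 genes in mRNA and 15723 in footprints. Translational efficiency was fitted on 12097 genes that passed both filters, with mRNA and footprint libraries in 1 model, a term for each mouse, and the change of footprints relative to mRNA as the contrast. Adjusted p is by Benjamini-Hochberg over all genes tested, with a threshold of 0.05. The SE is the log2 change divided by the square root of the F statistic, and intervals are at 95%. The code was tested on simulated data. The members and gene lists were chosen with earlier results of these data known. From each pathway list, genes past the threshold could be named, at most 4 per list and comparison by smallest p, and for translational efficiency the lists are given as counts. Dld, Csl, the untested kinases, the myeloid markers and the list genes said not to have passed were named after their values were seen. Genes of like pattern were the 3 with the smallest RMS difference, for members called in footprints and Pdk1, among genes of at least 10 CPM.

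The mRNA and footprint library of a mouse come from the same lysate, per the labels. Of the 21 mice, 12 had deviations from the group mean that matched their own footprint library best among those of the group (median r = 0.0811 across genes). In both kinds of library, none of the 47 same-group pairs matched within counting error, with a chi-square per degree of freedom of 39.8 to 684 in mRNA and 4.34 to 27.1 in footprints. The labels do not say that groups share litters or days, and p-values measure the spread between these mice. Alternatives were another scaling (median ratio, or protein-coding genes only), no filter, only the compared groups, each mouse left out, the 4 mice that stood apart left out, near-identical copies summed, DESeq2 1.42.0, a replicate block and, chosen after seeing the data, the 2 mice with the shallowest footprint libraries left out (AA vehicle mice 1 and 2). The pathway lists were recounted under both scalings and without the 4 mice, also chosen after seeing the data. Levels per coding length were not analysed here. The list of other TCA cycle genes is not complete, and what it leaves out is not reported here.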

Additional observations from a re-analysis of the deposited data

Results flagged for a closer look

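Of 72 sets of values, the 9 members in 4 groups and 2 kinds of library, 8 had a highest or lowest mouse far from the others by Dixon's criterion, which chance flags in about 1 in 20. AA vehicle mouse 4 stood highest in mRNA for Dlat (73.3 CPM, next 42.3), Pdhx (52.9, next 35.2) and Ogdh (140.0, next 96.2), so that 3 of the 8 came from 1 library. In footprints AA vehicle mouse 3 was highest for Pdha1 (88.0 CPM, next 72.2), AA vehicle mouse 1 lowest for Dlat (21.6, next 29.2) and AA vehicle mouse 2 lowest for Idh3a (62.2, next 68.2). Mice 1 and 2 of that group have the shallowest footprint libraries. In AA 5+3 mouse 4 was highest for Pdk1 (13.9 CPM, next 10.9) and mouse 1 highest for Idh3a (83.7, next 74.0). The effect of 5+3 on Dlat footprints differed between the diets by the interaction test (−0.53 on the log2 scale, edgeR adjusted p = 0.0381), with 0.48 ± 0.12 on the AA diet and −0.05 ± 0.10 on the BCAA-free diet. Without AA vehicle mouse 1 the interaction was −0.45 (adjusted p = 0.053), and over all alternatives its adjusted p was 0.0299 to 0.175.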

How the results depend on the processing

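The number of members called was compared across settings, and no called member changed sign. Of the single-member changes under the alternatives, 3785 kept their state, called or not called, 172 lost a call and 12 gained one. A further 9 that were not called in either moved by more than 1 SE. Losses could come only from members called as reported, which were at most 5 of 9 in a comparison. The 3785 therefore do not measure how well the calls held. For 5+3 on the BCAA-free diet in mRNA (4 called) the number was 6 by DESeq2 and 6 with the replicate block, 3 under each other scaling and with no filter, 2 with only the compared groups, 2 without the 2 mice with the shallowest footprint libraries, 0 without the 4 mice that stood apart, and 0 to 5 with 1 mouse left out. For the same comparison in footprints (1 called) it was 2 under protein-coding scaling, 0 with no filter, 0 without the 4 mice and 0 to 2 with 1 mouse left out, and for 5+3 on the AA diet (1 called) 0 to 1. Between the diets under 5+3 in footprints (3 called) it was 1 with no filter and 1 to 3 with 1 mouse left out. Under protein-coding scaling both lower calls there (Dlat and Ogdh) were lost and Pdk1 was called higher. For the footprint interaction (1 called) the number was 0 under protein-coding scaling, with no filter, without the 4 mice and without the 2 shallowest. With 1 mouse left out it was 0 to 1. For translational efficiency with 5+3 on the BCAA-free diet (5 called) it was 3 under median-ratio scaling, 1 under protein-coding scaling, 2 with no filter, 1 with only the compared groups, 0 without the 4 mice, 2 without the 2 shallowest and 0 to 5 with 1 mouse left out. The cause of these changes was not tested, beyond the fewer mice in some. DESeq2 was not run for translational efficiency, where the number was 5 without the mouse as a block.

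The labels number replicates in each group, but the numbers share no stated source. Numbers 6 and 7 occur only in BCAA-free 5+3, so a replicate block gives each of those mice a term of its own. With the block, comparisons of BCAA-free 5+3 therefore rest on its mice 1 to 5. Of 27 same-numbered pairs, 10 in mRNA and 6 in footprints correlated over 0.1, and 5 of 21 libraries in each kind correlated best with their own number. With the number as a replicate block, the footprint count was 0 for 5+3 on the BCAA-free diet (Cs 0.23, adjusted p = 0.0652) and 0 for the interaction (Dlat −0.55, adjusted p = 0.0769). In mRNA for 5+3 on the BCAA-free diet the block added Pdha1, Cs and Ogdh (adjusted p = 0.0176, 0.0338 and 0.0312) and lost Pdhb (0.0634). Over all genes, calls for 5+3 on the BCAA-free diet in mRNA ranged from 19 to 3471 across the alternatives and from 546 to 2613 with 1 mouse left out (1807 as reported), and between the diets under 5+3 in footprints from 3307 to 4843 and from 3375 to 4737 (4447). Pdhx, Pdk1 and Pdk3 had 29 to 125 footprint counts per library, which limits what could be shown for them.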
